A study of Homo sapiens with 6 samples.

Results

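The proteasome genes described here are the rows of the count table whose symbol is PSMA, PSMB, PSMC, PSMD, PSME, PSMF or PSMG followed by a number, together with POMP. The rule found 49 genes among 58735 rows, and 47 of them had at least 10 counts in 3 or more libraries. The same 47 were among the 15244 genes tested. PSMA8, a testis form of a core alpha subunit, had 2 counts in 1 OTUD1 siRNA library and 0 in the other libraries. PSMB11, the thymus form of a catalytic subunit, had 0 counts in all 6 libraries, and neither gene was tested. The lowest member inside the count threshold was PSMA6, with 62, 72 and 82 counts in OTUD1 siRNA cells and 75, 79 and 90 counts in control siRNA cells.

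The libraries came from ACHN, an established line of human renal cancer cells, transfected either with an siRNA against OTUD1 (small interfering RNA, labelled si01, 3 libraries) or with a control siRNA (labelled NC, 3 libraries). OTUD1 encodes an enzyme that cleaves ubiquitin from proteins. The design rests on 1 cell line and 1 siRNA against OTUD1, and neither the time after transfection nor the origin of the replicates is stated in the labels. If the 3 libraries of a group share a culture, the p-values reflect technical spread.

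The proteasome degrades proteins tagged with ubiquitin. Its barrel-shaped core particle is built from rings of alpha subunits, which gate the entry, and rings of beta subunits, of which PSMB5, PSMB6 and PSMB7 cut the substrate. A regulatory cap, with a base of ATPases and a lid that removes ubiquitin, unfolds substrates and feeds them in, while the PSME activators open the core without ATP. In the immunoproteasome the catalytic subunits are replaced by PSMB8, PSMB9 and PSMB10, which interferon signalling through IRF1 is known to induce and which favour peptides for antigen presentation. The transcription factor NFE2L1 is known to raise proteasome genes together when proteasome activity is short.

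Total counts ran from 17243433 to 21013530 in the OTUD1 siRNA libraries and from 16753495 to 18993534 in the control siRNA libraries. OTUD1 itself had 28, 17 and 25 counts in OTUD1 siRNA cells and 61, 67 and 65 counts in control siRNA cells. It was lower in 3 of 3 OTUD1 siRNA libraries, with a log2 fold change of -1.69 ± 0.24 SE (adjusted p = 4.37e-07 in edgeR). Of 7 renal epithelial markers, 5 were lower in OTUD1 siRNA cells (PAX8, PAX2, LHX1, KRT8 and KRT18), KRT19 was higher and CDH6 was at 0 counts in every library. Their summed level was 3529 to 3659 CPM (counts relative to the TMM-scaled library size) in OTUD1 siRNA cells and 6629 to 6878 CPM in control siRNA cells, and their part in the results below was not tested. The leukocyte markers PTPRC and CD3E were at 0 counts in all libraries, and the 4 leukocyte markers together reached 0.645 to 1.28 CPM in OTUD1 siRNA cells and 1.27 to 1.58 CPM in control siRNA cells. In bulk RNA, fewer cells of a kind and less RNA per cell cannot be told apart.

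The bases around the starts of the immunoproteasome genes are shown first, because PSMB10 and PSMB8 share a stretch there with 3 other members. Promoter windows from 250 bases before to 50 bases after the RefSeq start (GRCh38.p14) were found for 43 of the 49 genes. The windows of the 3 immunoproteasome genes follow, 5′ to 3′ in the sense of the gene. Capitals mark GAAAGCGAAA or its reverse complement in PSMB10 and PSMB8, and CCAAT and the reverse complement of TGACNNNGC in PSMB9. PSMB8 has 2 annotated starts with a window, and the one that holds the match is shown.
PSMB10 (chr16:67936801-67937100, minus strand): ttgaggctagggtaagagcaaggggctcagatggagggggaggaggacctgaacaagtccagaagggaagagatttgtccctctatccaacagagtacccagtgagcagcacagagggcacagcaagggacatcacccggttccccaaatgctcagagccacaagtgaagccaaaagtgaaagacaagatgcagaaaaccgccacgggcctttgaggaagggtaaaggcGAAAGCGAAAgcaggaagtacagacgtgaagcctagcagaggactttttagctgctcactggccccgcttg
PSMB8 (chr6:32843998-32844297, minus strand): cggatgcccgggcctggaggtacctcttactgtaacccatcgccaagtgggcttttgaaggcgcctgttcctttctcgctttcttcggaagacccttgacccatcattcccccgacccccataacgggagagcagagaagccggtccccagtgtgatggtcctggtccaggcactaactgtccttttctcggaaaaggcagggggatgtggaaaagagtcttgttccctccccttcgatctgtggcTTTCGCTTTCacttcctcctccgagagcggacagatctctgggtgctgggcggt
PSMB9 (chr6:32853942-32854241, plus strand): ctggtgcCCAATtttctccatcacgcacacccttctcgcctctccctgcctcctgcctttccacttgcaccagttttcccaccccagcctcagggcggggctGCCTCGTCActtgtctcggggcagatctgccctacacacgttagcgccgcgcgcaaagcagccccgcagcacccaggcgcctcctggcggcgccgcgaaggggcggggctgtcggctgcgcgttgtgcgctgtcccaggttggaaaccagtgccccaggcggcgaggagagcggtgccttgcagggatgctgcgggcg

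The same 10 bases stand in the windows of PSME1, PSME2 and PSMG4, printed here with 15 bases on either side and the match or its reverse complement in capitals. Repeats of GAAA are the core of the element that interferon regulatory factors such as IRF1 are known to bind.
PSME1 (chr14:24136184-24136223, plus strand): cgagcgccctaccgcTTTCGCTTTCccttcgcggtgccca
PSME2 (chr14:24146614-24146653, minus strand): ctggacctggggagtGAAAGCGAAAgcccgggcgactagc
PSMG4 (chr6:3258899-3258938, plus strand): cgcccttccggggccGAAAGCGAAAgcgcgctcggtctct
These 5 genes were 11.6% of the 43 members with a window, and 34 of 27305 genes with a window held the 10 bases (0.124%), or 28 of the 10611 tested genes (0.264%). This exact string was looked for after it had been seen in these genes.

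Of the 47 proteasome genes tested, 8 were higher and 23 lower in OTUD1 siRNA cells than in control siRNA cells at an edgeR adjusted p below 0.05, and 16 were not called. Over all genes tested 60.4% were called, 29.3% higher and 31.1% lower. The members' share called was 66.0%, with 17.02% higher and 48.9% lower. Their median log2 fold change was -0.15, beside 0.01 over all genes. The changes were small: the median size of a called change was 0.25 on the log2 scale among members, beside 0.47 among all called genes. Over called and uncalled genes it was 0.18 among members and 0.32 among all genes tested. The members were not matched for level with the other genes. Of all genes tested 31.85% passed 0.5, and among the members 2 of 47 did, PSMB10 and PSMD2. PSMG4 lay just below, at 0.4957. Which members passed depended on the scaling: with libraries scaled by their totals alone, PSMG4 (0.62) and PSMC3 (0.56) passed and PSMD2 (-0.41) did not. No core alpha gene was called higher, and each other class held at least 1 gene called in each direction.

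The split between higher and lower depended on the scaling. The scaling factors lay between 1.0454 and 1.0464 in the OTUD1 siRNA libraries and between 0.9549 and 0.9572 in the control siRNA libraries. When libraries were scaled by their totals alone, the median log2 fold change of all genes moved to 0.13, each member's value moved up by 0.13, and 16 members were called higher and 13 lower. Quantile normalization gave 15 higher and 15 lower. The 8 further genes called higher with library totals were PSMB4, PSMB5, PSMC4, PSMD3, PSMD4, PSMD7, PSMD13 and PSMG2, and all of these but PSMD7 were called higher with quantile normalization too. The values of 23 of the 31 called members moved by over 1.5 times with library totals and of 22 with quantile normalization. With library totals the base held 2 higher and 3 lower, the lid 5 higher, and the activators and the assembly genes 1 lower each. The higher members were 25.8% of those called with the scaling used here and 55.2% with library totals. Over all genes tested, the higher share of those called was 48.45% with the scaling used here and 64.17% with library totals. It was 52.24% with quantile normalization, where as many members were higher as lower. The members' share was thus below that of all genes with the scaling used here and with library totals. With quantile normalization the shares lay close together, and whether they differ was not tested under any scaling. With library totals the members' median log2 fold change was -0.02, beside 0.13 over all genes. The medians were closer with quantile normalization, at -0.0083 for the members and 0.0168 over all genes. Summed over the 47 genes, the proteasome took 6843, 6843 and 6799 CPM in OTUD1 siRNA cells and 7578, 7309 and 7442 CPM in control siRNA cells. As a share of all raw counts it took 0.714%, 0.715% and 0.710% in OTUD1 siRNA cells and 0.723%, 0.699% and 0.711% in control siRNA cells, and those shares overlapped. All 8 higher calls and 13 of the 23 lower calls held under each of the 15 alternatives run. Library totals, quantile normalization and a minimum of 5 CPM moved all 8 higher genes further up. Those settings could therefore not take away the higher calls, and the numbers held do not compare the higher calls with the lower ones. The other 10 lower calls (PSMA2, PSMA5, PSMA7, PSMB2, PSMB3, PSMC2, PSMD1, PSMD5, PSME2 and PSME3) were lost with library totals, and all of these but PSMA2 with quantile normalization too.

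**Figure D1:**
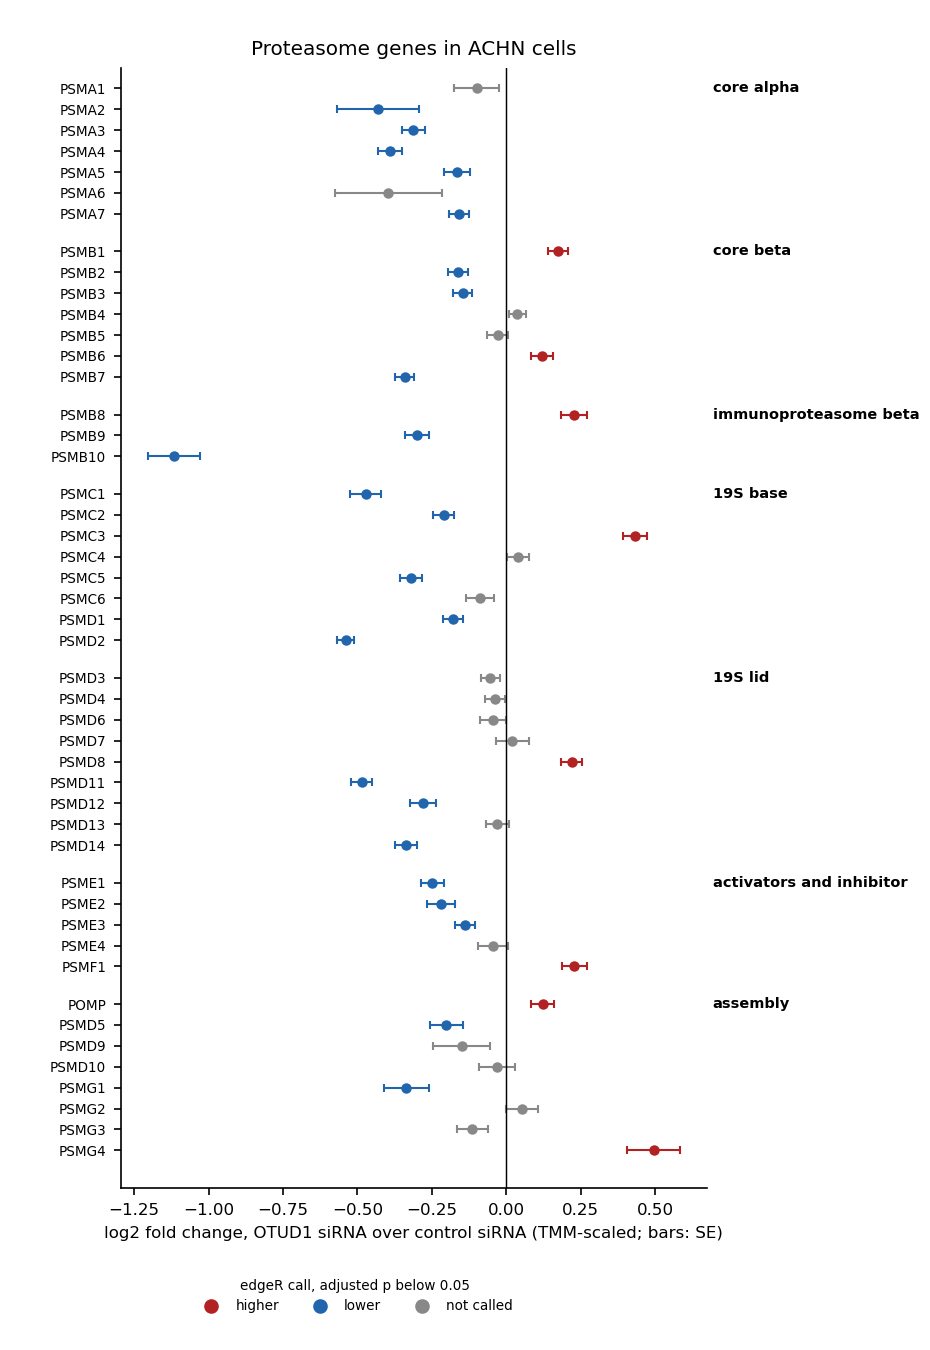
Log2 fold change of each of the 47 tested proteasome genes, OTUD1 siRNA over control siRNA, grouped by role, with bars for the standard error and colour for the call at an edgeR adjusted p below 0.05. PSMB10 lies farthest from 0 at -1.12, PSMD2 follows at -0.54, and the largest increase is PSMG4 at 0.50.

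The immunoproteasome genes changed in different directions. PSMB10 had 13.2, 11.02 and 11.7 CPM in OTUD1 siRNA cells and 24.9, 25.1 and 28.1 CPM in control siRNA cells. It encodes the trypsin-like subunit that replaces PSMB7, and lies on chromosome 16 at 67934502 to 67937087 (hg38, minus strand). All OTUD1 siRNA libraries were below all control siRNA libraries, and PSMB10 was 2.17-fold lower (log2 fold change -1.12 ± 0.089 SE, adjusted p = 7.4e-12 in edgeR). Over the 15 alternatives its log2 fold change ran from -1.20 to -0.99. On the same strand 45.3% of its principal transcript is shared with AC040162.1, a gene with 15 to 26 counts per library, beside 211 to 289 counts for PSMB10 in OTUD1 siRNA cells and 398 to 481 in control siRNA cells.

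PSMB9 and PSMB8 lie beside the TAP genes, whose products carry peptides into the endoplasmic reticulum, in the class II region of the major histocompatibility complex on chromosome 6. PSMB9 had 122, 121 and 129 CPM in OTUD1 siRNA cells and 158, 145 and 155 CPM in control siRNA cells. The groups did not overlap, and PSMB9, which replaces PSMB6, was 1.23-fold lower in OTUD1 siRNA cells (log2 fold change -0.30 ± 0.041 SE, adjusted p = 2.8e-07 in edgeR). PSMB8, the chymotrypsin-like subunit that replaces PSMB5, had 143, 138 and 137 CPM in OTUD1 siRNA cells and 129, 113 and 115 CPM in control siRNA cells. It was 1.17-fold higher with no overlap between the groups (log2 fold change 0.23 ± 0.044 SE, adjusted p = 5.61e-05 in edgeR). PSMB8 (32840717 to 32844703, minus strand) and PSMB9 (32844136 to 32859585, plus strand) lie beside TAP1 (32845209 to 32853978, minus strand), and the annotated PSMB9 gene spans all of TAP1 and overlaps PSMB8 on the opposite strand. Their principal transcripts share no exon base with another gene. TAP1 had 187, 198 and 186 CPM in OTUD1 siRNA cells and 186, 182 and 180 CPM in control siRNA cells, with a log2 fold change of 0.06 (SE 0.036) that did not pass the test (edgeR adjusted p = 0.155). It was called higher with a minimum of 5 CPM (0.11), library totals (0.19) and quantile normalization (0.20).

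The constitutive catalytic partners also differed among themselves. PSMB5 had 201, 202 and 208 CPM in OTUD1 siRNA cells and 215, 201 and 207 CPM in control siRNA cells. These values overlapped, and its log2 fold change of -0.03 (SE 0.035) did not pass the test (edgeR adjusted p = 0.51). PSMB6, the caspase-like subunit, had 274.7, 274.7 and 275 CPM in OTUD1 siRNA cells and 265, 238 and 256 CPM in control siRNA cells. Each OTUD1 siRNA value exceeded each control siRNA value, by a log2 fold change of 0.12 ± 0.036 SE (adjusted p = 0.00505 in edgeR). It was 0.08 without control siRNA replicate 2, 0.25 with library totals and 0.27 with quantile normalization. PSMB7 had 206, 214 and 206 CPM in OTUD1 siRNA cells and 266, 264 and 264 CPM in control siRNA cells. It was the core beta gene with the largest decrease, at a log2 fold change of -0.34 ± 0.033 SE (adjusted p = 4.48e-10 in edgeR), again with no overlap.

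Set against its partner, each immunoproteasome gene moved further from the control siRNA ratio than the libraries of a group differed. The PSMB8 to PSMB5 log2 ratio of counts averaged -0.55 ± 0.058 in OTUD1 siRNA cells and -0.80 ± 0.057 in control siRNA cells (SD, n = 3 each), a difference of 0.26. For PSMB9 to PSMB6 the ratio averaged -1.15 ± 0.047 in OTUD1 siRNA cells and -0.73 ± 0.015 in control siRNA cells, a difference of -0.42. PSMB10 to PSMB7 averaged -4.12 ± 0.16 in OTUD1 siRNA cells and -3.35 ± 0.10 in control siRNA cells, a difference of -0.78, although PSMB7 itself was lower. These ratios do not depend on a scaling by a single factor per library, as with TMM or library totals. Quantile normalization is not of that kind and can change them. In none of the 3 pairs did the groups overlap, and each gave p = 0.1 in a two-sided exact permutation test, the smallest p that 3 against 3 libraries allow (0.133 after Benjamini-Hochberg adjustment over 4 ratios). Per length of transcript, PSMB8 made up 44.0% ± 1.0 of the PSMB8 and PSMB5 pair in OTUD1 siRNA cells and 39.7% ± 0.95 in control siRNA cells. The share of PSMB9 in its pair was 33.0% ± 0.73 in OTUD1 siRNA cells and 39.7% ± 0.24 in control siRNA cells, and that of PSMB10 was 4.42% ± 0.46 in OTUD1 siRNA cells and 7.34% ± 0.49 in control siRNA cells. These shares used the principal transcript and depend on that length. Per kilobase of all annotated exons in OTUD1 siRNA cells, PSMB8 stood at 46.5 CPM and PSMB5 at 115. PSMB9 stood there at 40.4 and PSMB6 at 189.8. How bases shared with AC040162.1 were counted is not stated, so the PSMB10 share is uncertain.

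**Figure D2:**
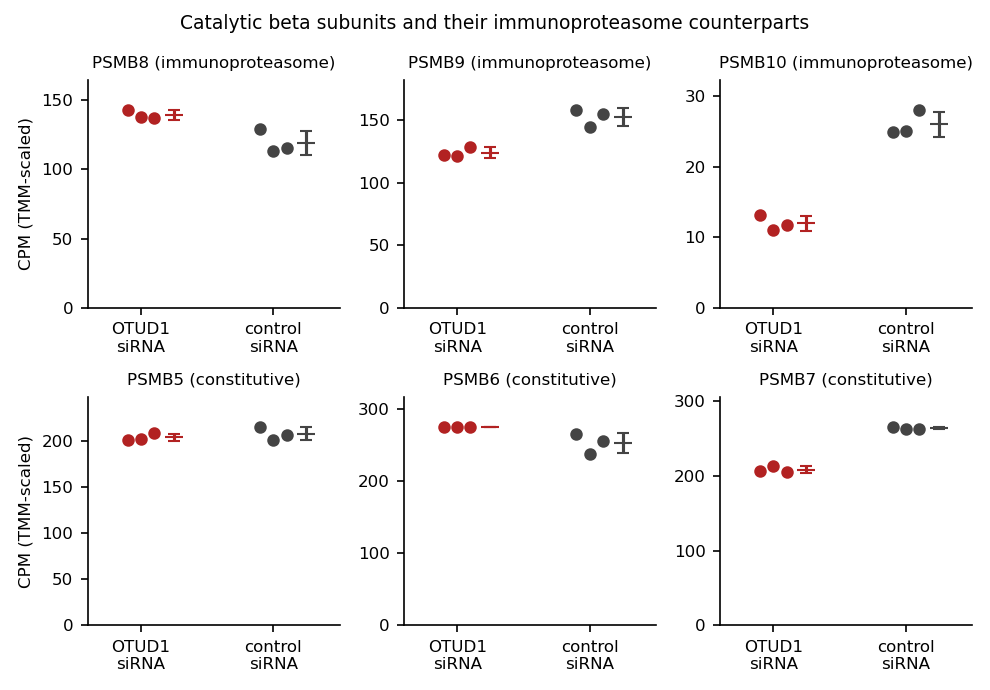
CPM in each library for the 3 immunoproteasome genes and the constitutive partner of each, OTUD1 siRNA left of control siRNA, with a bar at the mean. PSMB10 lies at 11.02 to 13.2 CPM in OTUD1 siRNA cells and 24.9 to 28.1 CPM in control siRNA cells, while PSMB8 lies above its control siRNA values and PSMB5 overlaps them.

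Of the 7 core alpha genes tested, 5 were lower and none was higher in OTUD1 siRNA cells, with a median log2 fold change of -0.31. PSMA4 (-0.39), PSMA3 (-0.31), PSMA5 (-0.17) and PSMA7 (-0.16) were lower, and PSMA1 (-0.10) did not pass the test. PSMA2 had the largest decrease called, from a low level: 5.20, 5.56 and 6.17 CPM in OTUD1 siRNA cells and 7.82, 8.37 and 6.54 CPM in control siRNA cells. Its groups did not overlap, with a log2 fold change of -0.43 ± 0.14 SE (adjusted p = 0.00778 in edgeR). Without control siRNA replicate 2 its adjusted p was 0.0506, and with library totals 2 of the 7 genes were called lower. PSMA6 had 2.83, 3.58 and 4.55 CPM in OTUD1 siRNA cells and 4.69, 4.35 and 5.25 CPM in control siRNA cells, which overlapped (log2 fold change -0.40 ± 0.18 SE, adjusted p = 0.0579 in edgeR). With single libraries left out its log2 fold change ran from -0.58 (without OTUD1 siRNA replicate 3, adjusted p = 0.0129) to -0.23 (without OTUD1 siRNA replicate 1), and its adjusted p was 0.0473 without control siRNA replicate 2. The principal transcripts of PSMA1, PSMA2 and PSMA6 share 53.2%, 52.5% and 81.0% of their length with another gene on the same strand, so their levels are uncertain. PSMA6 also has a pseudogene, PSMA6P1, with 15 to 29 counts per library.

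The 7 constitutive core beta genes held 2 higher, 3 lower and 2 not called, with a median log2 fold change of -0.03. PSMB1, a structural ring subunit, had 273.5, 281 and 272 CPM in OTUD1 siRNA cells and 247, 238 and 248 CPM in control siRNA cells. It showed the largest increase of the ring, with no overlap and a log2 fold change of 0.17 ± 0.033 SE (adjusted p = 4.37e-05 in edgeR). PSMB2 (-0.16) and PSMB3 (-0.15), also structural, were lower, while PSMB4 (0.04) and PSMB5 did not pass the test. With library totals or quantile normalization 4 of the 7 were called higher and 1 lower.

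In the cap, the base held 1 higher, 5 lower and 2 not called of 8 genes, and the lid 1 higher, 3 lower and 5 not called of 9. The lid class here means the lid and other cap genes of the symbol rule. It includes PSMD4 and leaves out SEM1, which is given below with the related genes. PSMD2, a scaffold subunit of the base that docks shuttle factors and ubiquitin-like domains, had 395, 392 and 382 CPM in OTUD1 siRNA cells and 577, 551 and 573 CPM in control siRNA cells. The groups did not overlap, and PSMD2 was 1.45-fold lower (log2 fold change -0.54 ± 0.030 SE, adjusted p = 2.53e-15 in edgeR). With quantile normalization its log2 fold change was -0.32. PSMC3, 1 of the ring ATPases, had 162, 158 and 159 CPM in OTUD1 siRNA cells and 121, 111 and 123 CPM in control siRNA cells. It was the only base gene called higher, 1.35-fold, with no overlap (log2 fold change 0.43 ± 0.040 SE, adjusted p = 2.01e-10 in edgeR). Its partners in the same ATPase ring did otherwise: PSMC1 (-0.47), PSMC5 (-0.32) and PSMC2 (-0.21) were lower, and PSMC4 (0.04) and PSMC6 (-0.09) did not pass the test. PSMD1 (-0.18), the other large scaffold of the base, was lower. NRDE2 overlaps 82.1% of the principal transcript of PSMC1 on the opposite strand and FTSJ3 27.2% of that of PSMC5, and whether the counting used strand is not stated.

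PSMD11, a structural lid subunit, had 173, 180.2 and 170.0 CPM in OTUD1 siRNA cells and 244, 243 and 246 CPM in control siRNA cells. The groups did not overlap, and it was 1.40-fold lower (log2 fold change -0.49 ± 0.034 SE, adjusted p = 5.98e-13 in edgeR). PSMD14 (-0.34), the metalloprotease that takes ubiquitin chains off substrates, and PSMD12 (-0.28) were also lower. PSMD8, the only lid gene called higher, had 211.5, 213 and 221 CPM in OTUD1 siRNA cells and 189, 185 and 180.3 CPM in control siRNA cells. Again no library of one group reached the other (log2 fold change 0.22 ± 0.035 SE, adjusted p = 3.81e-06 in edgeR). PSMD3 (-0.05), PSMD4 (-0.04), a ubiquitin receptor, PSMD6 (-0.05), PSMD7 (0.02) and PSMD13 (-0.03) did not pass the test.

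Among the activators and the inhibitor, 3 of 5 genes were lower, 1 was higher and 1 was not called. PSME1 had 115, 113.5 and 119 CPM in OTUD1 siRNA cells and 135, 139.6 and 137 CPM in control siRNA cells. PSME2, which forms a ring with PSME1 on the immunoproteasome, had 140.4, 138 and 136 CPM in OTUD1 siRNA cells and 175, 145 and 163 CPM in control siRNA cells. Both were below control siRNA in 3 of 3 libraries, PSME1 by a log2 fold change of -0.25 ± 0.038 SE (adjusted p = 2.33e-06 in edgeR) and PSME2 by -0.22 ± 0.047 SE (adjusted p = 1.88e-04 in edgeR). Their log2 ratio to each other averaged -0.26 ± 0.052 in OTUD1 siRNA cells and -0.22 ± 0.16 in control siRNA cells, which overlapped (exact permutation test, two-sided, p = 0.8, n = 3 each, 0.8 after adjustment over the 4 ratios). The difference was -0.03, and 0.05 without control siRNA replicate 2. PSME3 (-0.14), the nuclear activator, was lower, and PSME4 (-0.05) did not pass the test. PSMF1, an inhibitor of the core known as PI31, had 113, 112 and 118 CPM in OTUD1 siRNA cells and 100.4, 93.5 and 98.4 CPM in control siRNA cells. It was higher with no overlap (log2 fold change 0.23 ± 0.042 SE, adjusted p = 3.19e-05 in edgeR).

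The 8 assembly genes were 2 higher, 2 lower and 4 not called. PSMG4, part of a chaperone pair for the alpha ring, had 26.9, 25.7 and 26.9 CPM in OTUD1 siRNA cells and 22.2, 16.0 and 18.4 CPM in control siRNA cells. It showed the largest increase of all 47 genes, as it did in 13 of 15 alternatives (PSMC3 was above it without control siRNA replicate 2 and with quantile normalization), with no overlap (log2 fold change 0.50 ± 0.089 SE, adjusted p = 2.07e-05 in edgeR), while PSMG3, with which it pairs, had -0.11 and did not pass the test. The adjusted p of PSMG3 was 0.0227 without OTUD1 siRNA replicate 3 and 0.0326 without control siRNA replicate 2. PSMG1 had 22.2, 23.9 and 25.1 CPM in OTUD1 siRNA cells and 30.1, 32.0 and 27.4 CPM in control siRNA cells. All its OTUD1 siRNA libraries were lower (log2 fold change -0.34 ± 0.075 SE, adjusted p = 3.03e-04 in edgeR), and its own chaperone partner PSMG2 had 0.05 and did not pass the test. POMP, which brings the beta rings together and leaves as the first substrate of the finished core, had 141, 149 and 148 CPM in OTUD1 siRNA cells and 136, 133 and 133 CPM in control siRNA cells. It was higher by 0.12 on the log2 scale with no overlap (SE 0.038, adjusted p = 0.00657 in edgeR). Of the chaperones of the base, PSMD5 was lower (-0.20) and PSMD9 (-0.15) and PSMD10 (-0.03) did not pass the test.

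The levels of the genes were compared as CPM per kilobase of the annotated principal transcript. Core beta genes had the highest class median, 297 in OTUD1 siRNA cells and 269.7 in control siRNA cells, and PSMB4 stood first of the 47 (second to PSMB3 per kilobase of all annotated exons) with 537 ± 3.6 in OTUD1 siRNA cells and 524 ± 9.2 in control siRNA cells (SD, n = 3 each). Class medians were 27.2 in OTUD1 siRNA cells and 35.7 in control siRNA cells for core alpha, and 26.9 in OTUD1 siRNA cells and 23.7 in control siRNA cells for assembly genes. The core alpha median was PSMA4, on a principal transcript of 4411 bases. Below it lay PSMA1, PSMA2 and PSMA6, which share bases with a same-strand gene. Above it lay PSMA5 (34.0 in OTUD1 siRNA cells, 38.2 in control siRNA cells), PSMA3 (113.5, then 141) and PSMA7 (274, then 306). The base had a median of 70.9 in OTUD1 siRNA cells and 69.9 in control siRNA cells, and the lid 72.8 in OTUD1 siRNA cells and 78.5 in control siRNA cells. For activators and the inhibitor it was 98.3 in OTUD1 siRNA cells and 115 in control siRNA cells. The 5 genes that share at least 40% of their transcript with a same-strand gene (PSMA1, PSMA2, PSMA6, PSMB10 and PSMD9) lay at 3.55 to 14.3 CPM per kilobase in OTUD1 siRNA cells and 4.63 to 21.4 in control siRNA cells. The other 42 lay at 7.96 to 537 in OTUD1 siRNA cells, with a median of 86.3, and at 8.21 to 524 in control siRNA cells, with a median of 87.1. How shared bases were counted is not stated, so the low levels of PSMA1, PSMA2, PSMA6, PSMB10 and PSMD9 beside the rest of the complex cannot be told apart from reads left uncounted.

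The 6 catalytic genes had the order PSMB6, PSMB7, PSMB9, PSMB5, PSMB8, PSMB10 on this scale in both groups. Per kilobase of all annotated exons the order differed, with PSMB9 at 40.4 in OTUD1 siRNA cells and 49.7 in control siRNA cells, PSMB5 at 115 in OTUD1 siRNA cells and 118 in control siRNA cells, and PSMB8 at 46.5 in OTUD1 siRNA cells and 39.7 in control siRNA cells. PSMB6 stood at 322 ± 0.23 CPM per kilobase in OTUD1 siRNA cells and 297 ± 16 in control siRNA cells, and PSMB7 at 213 ± 4.8 in OTUD1 siRNA cells and 269.7 ± 1.3 in control siRNA cells. Per kilobase of principal transcript, PSMB9 and PSMB5, neighbours in that order, stood at 159 ± 5.4 and 158 ± 3.1 CPM per kilobase in OTUD1 siRNA cells, within their spread. In control siRNA cells PSMB9 stood at 195 ± 9.1 and PSMB5 at 161 ± 5.3, and PSMB8 followed with 124 ± 3.0 in OTUD1 siRNA cells and 106 ± 7.6 in control siRNA cells. PSMB10 came last, with 9.83 ± 0.90 in OTUD1 siRNA cells and 21.4 ± 1.5 in control siRNA cells.

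**Figure D3:**
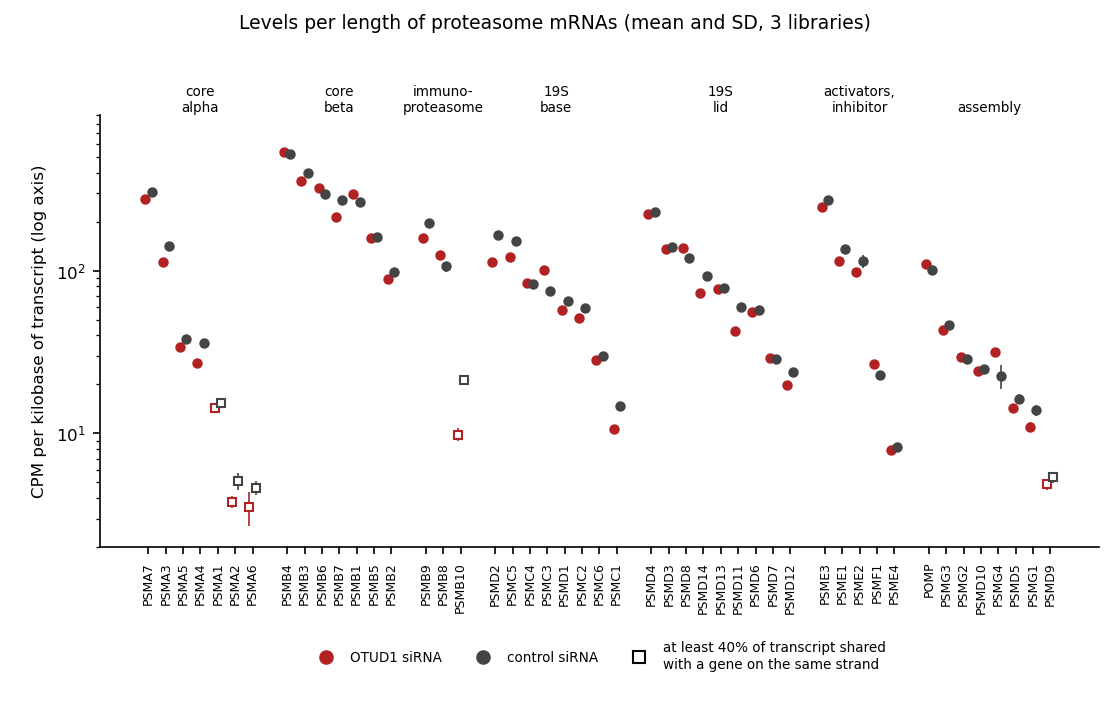
Mean CPM per kilobase of principal transcript for each of the 47 tested proteasome genes on a log axis, grouped by role, with bars for the SD over 3 libraries, and with genes that share at least 40% of their transcript with a same-strand gene marked. PSMB4 is highest at 537 in OTUD1 siRNA cells, and PSMA6, PSMA2 and PSMD9, all marked, are lowest at 3.55 to 4.86.

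Short motifs were searched on both strands of the promoter windows, and no matches to different motifs overlapped one another. TGACNNNGC, the core of the antioxidant response element to which NFE2L1 and NFE2L2 are known to bind, stood in 15 of 43 member windows (34.9%), beside 16.1% of all 27305 genes with a window and 19.5% of the 10611 tested. Of those 15 members none was higher, 10 were lower and 5 were not called, and of the 26 tested members without it 6 were higher, 11 lower and 9 not called. Over all tested genes with a window, 30.4% of those with TGACNNNGC were higher and 34.1% lower, and 29.4% of those without it were higher and 34.3% lower. Of the 10 lower calls, those of PSMB3, PSMD1, PSMD5 and PSME2 were lost with library totals. PSMC4, PSMD3 and PSMG2, among the 5 not called, were called higher with library totals and with quantile normalization. That none of the 15 was higher therefore depended on the scaling. A looser interferon regulatory element, GAAA and GAAA with any pair of bases between, stood in 7 of 43 member windows (16.3%), beside 4.38% of all genes and 3.88% of those tested. Of these 7 members 2 were higher, 4 lower and 1 not called, and of the 34 without it 4 were higher, 17 lower and 13 not called. Over all tested genes with a window, 26.4% of those with this looser element were higher and 37.5% lower. Of those without it 29.7% were higher and 34.1% lower. Of the 5 members with the exact 10 bases printed above, PSMB8 and PSMG4 were higher and PSMB10, PSME1 and PSME2 were lower in OTUD1 siRNA cells. Among the 23 other tested genes with those bases, 6 were higher, 8 lower and 9 not called. CCAAT stood in 20 of 43 member windows (46.5%), beside 39.7% of all genes and 42.7% of those tested. Of the 19 tested members with it 2 were higher, 12 lower and 5 not called, and of the 22 without it 4 were higher, 9 lower and 9 not called. Over all tested genes with a window, 27.9% of those with CCAAT were higher and 36.45% lower. Of those without it 30.85% were higher and 32.65% lower. These are matches of letters in a window and do not show that a factor bound there.

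Of 34 tested genes that act with the proteasome or on its genes, 6 were higher, 18 lower and 10 not called in OTUD1 siRNA cells, with a median log2 fold change of -0.22. That is 70.6% called, beside 60.4% of all genes, and 52.9% lower, beside 31.1%. With library totals 10 were called higher and 15 lower, beside 6189 higher and 3456 lower of all 15244 genes tested. DDI1, a shuttle of the testis, was on the list with 0 counts in all libraries. Among the genes of interferon signalling and antigen processing that go with the immunoproteasome, 3 of 6 were lower and none was higher, and the largest change of the list was there. IRF1 had 43.1, 50.2 and 45.0 CPM in OTUD1 siRNA cells and 132, 125 and 133 CPM in control siRNA cells, a log2 fold change of -1.50 ± 0.051 SE (adjusted p = 2.87e-20 in edgeR). Every OTUD1 siRNA library was below every control siRNA library. IFNGR2, a subunit of the interferon gamma receptor, had 94.0, 94.0 and 95.9 CPM in OTUD1 siRNA cells and 148, 153 and 163 CPM in control siRNA cells (log2 fold change -0.71, edgeR adjusted p = 7.81e-15). TAP2 (-0.57) was also lower, and TAP1 (0.06), IFNGR1 (-0.03) and NLRC5 (-0.22) did not pass the test. That none was higher depended on the scaling, because TAP1 was called higher with library totals, quantile normalization and a minimum of 5 CPM. Without control siRNA replicate 2 the adjusted p of NLRC5 was 0.0466.

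All 6 genes of the NFE2L1 and NFE2L2 arm were called, 2 higher and 4 lower. Of all genes tested 60.4% were called, 29.3% higher and 31.1% lower. NFE2L1 had 467, 472 and 455 CPM in OTUD1 siRNA cells and 337, 324 and 337 CPM in control siRNA cells. It was higher with no overlap (log2 fold change 0.48 ± 0.031 SE, adjusted p = 5.24e-14 in edgeR), as was DDI2 (0.49), the protease that activates NFE2L1. NFE2L2, its stress-responsive relative, had 128, 128 and 121 CPM in OTUD1 siRNA cells and 181, 197 and 189 CPM in control siRNA cells, with no overlap (log2 fold change -0.59, edgeR adjusted p = 1.44e-13). NGLY1 (-0.21), which removes sugars from NFE2L1, and SEL1L (-0.23) and SYVN1 (-0.26) of the ubiquitin ligase that acts on it at the endoplasmic reticulum were lower. NGLY1 had an adjusted p of 0.107 without control siRNA replicate 2 and 0.0514 without OTUD1 siRNA replicate 2. Its call was also lost with library totals (adjusted p = 0.359), a minimum of 5 CPM (0.0573) and DESeq2 (0.0534), and that of SYVN1 with library totals (0.0722).

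Upstream of the cap, VCP, the ATPase that pulls ubiquitinated proteins out of complexes and membranes, had 372, 378 and 381 CPM in OTUD1 siRNA cells and 543, 513 and 534 CPM in control siRNA cells. Of the 6 genes of VCP and its cofactors 4 were lower and 1 was higher, 83.3% called beside 60.4% of all genes. VCP was lower with no overlap (log2 fold change -0.49, edgeR adjusted p = 2.45e-14). FAF2, a cofactor at the endoplasmic reticulum, had 49.8, 47.5 and 44.9 CPM in OTUD1 siRNA cells and 82.6, 82.2 and 86.9 CPM in control siRNA cells. It showed the largest decrease of these genes, with no overlap (log2 fold change -0.82 ± 0.051 SE, adjusted p = 3.06e-14 in edgeR). NSFL1C (-0.46) and NPLOC4 (-0.28) were lower, FAF1 (0.26) was higher and UFD1 (0.10) did not pass the test. UFD1 was called higher with a minimum of 5 CPM (0.14), library totals (0.22) and quantile normalization (0.19). UBQLN1, a shuttle that brings ubiquitinated proteins to the cap, had 150.2, 154 and 142 CPM in OTUD1 siRNA cells and 231, 246 and 235 CPM in control siRNA cells. It was lower with no overlap (log2 fold change -0.67, edgeR adjusted p = 3e-15), UBQLN4 (0.19) was higher, and UBQLN2 (-0.04) and RAD23B (0.01) did not pass the test. RAD23B was called higher with library totals (0.14) and quantile normalization (0.17).

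Of 12 genes whose products bind the proteasome or assist it, 6 were lower, 2 higher and 4 not called. The deubiquitinase USP14 (-0.64) showed the largest decrease of these, and its counterpart on the cap, UCHL5 (-0.04), did not pass the test. ECPAS (-0.39), UBE3C (-0.35), a ubiquitin ligase at the cap, ZFAND5 (-0.28), IPO9 (-0.27) and the ubiquitin receptor ADRM1 (-0.19) were lower. The call of ADRM1 was lost with library totals (-0.06) and quantile normalization (-0.06), and without control siRNA replicate 1 its log2 fold change was -0.11. FBXO7 (0.19), a partner of PSMF1, and SEM1 (0.12), the smallest lid subunit, were higher. Without OTUD1 siRNA replicate 1 the adjusted p of SEM1 was 0.147, and without control siRNA replicate 2 it was 0.125. PAAF1 (0.20), TXNL1 (-0.05) and AKIRIN2 (-0.06) did not pass the test, although the adjusted p of PAAF1 was 0.0373 without OTUD1 siRNA replicate 3 and 0.0344 without control siRNA replicate 1, and it was called higher with a minimum of 5 CPM, DESeq-type size factors and library totals. Genes of these groups outside the rule for named genes were chosen for naming after their values were seen.

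**Figure D4:**
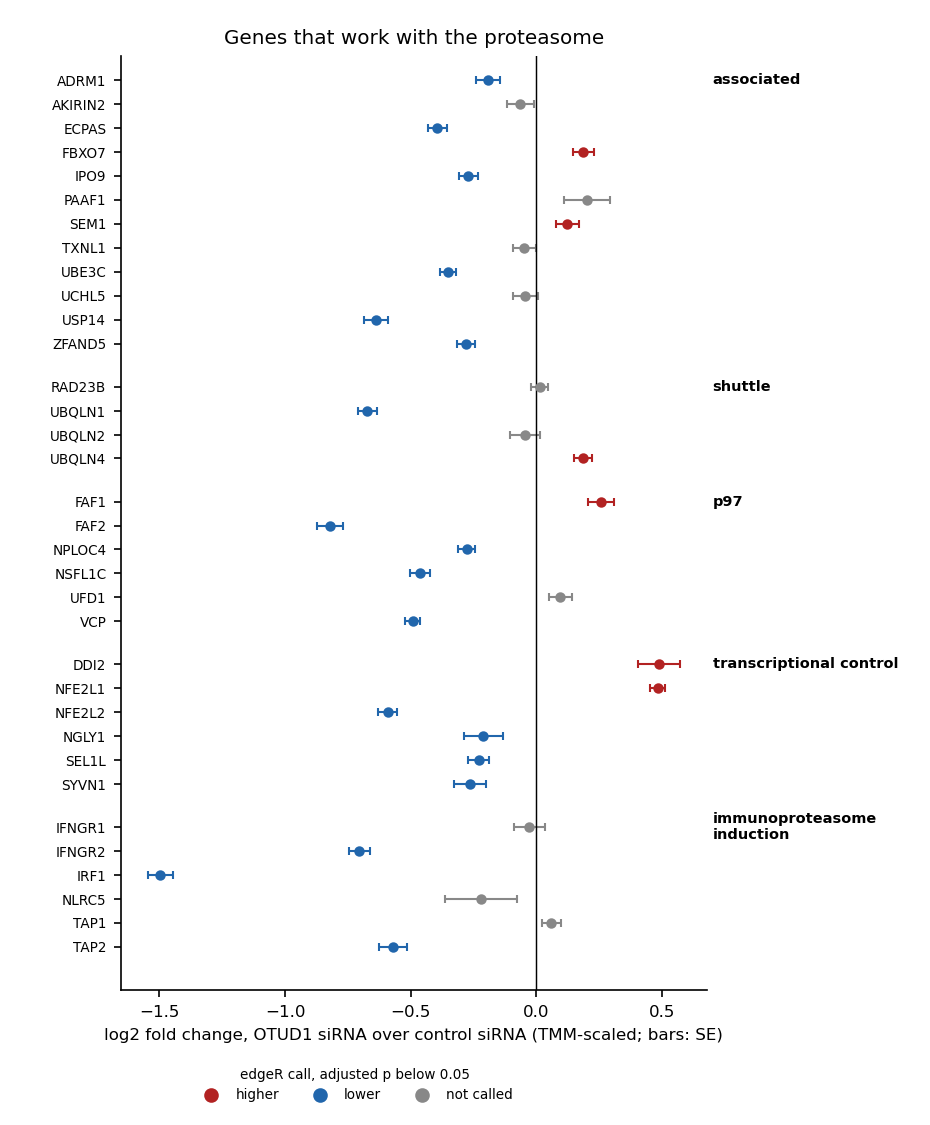
Log2 fold change, OTUD1 siRNA over control siRNA, of the 34 tested genes that act with the proteasome or on its genes, by group, with bars for the standard error and colour for the call. IRF1 at -1.50 and FAF2 at -0.82 lie farthest below 0, and DDI2 at 0.49 and NFE2L1 at 0.48 lie farthest above it.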

How the data were processed

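RNA-seq counts of 6 ACHN libraries were used, 3 with OTUD1 siRNA and 3 with control siRNA. Trizol extraction and a directional NEBNext library kit are named in the labels' protocols, and hg38 in the submitters' processing notes. No source used here gives the aligner, counter, strand setting or annotation. The values the authors deposited are whole-number counts per gene symbol, although the table's name speaks of FPKM, and they were used as raw counts. Symbols matched GENCODE 29 for 99.95% of rows.

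Genes were kept by filterByExpr in edgeR 4.0.16 (R 4.3.3; minimum count 10 in 3 libraries, minimum total 15), scaled by TMM, and compared with the two-sided quasi-likelihood test, with Benjamini-Hochberg adjustment over all 15244 genes and a threshold of 0.05. A call is a gene past that threshold. The biological coefficient of variation was 3.8%. Alternatives were 3 filters, DESeq-type size factors, library totals, quantile normalization with limma 3.58.1, limma-trend, DESeq2 1.42.0, the replicate number as a block, and each library left out. Ratios between genes used log2 of counts plus 0.5. The exact tests were run in Python 3.11.15 with scipy 1.17.1. A count of 3 corresponds to 0.137 to 0.188 CPM.

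On data simulated for this comparison over 15042 genes, genes with a true log2 change of 0.25, 0.5 and 1 were recovered at 38.8%, 80.6% and 81.8%, and 7 calls were false. The simulation changed only a small part of the genes, in both directions, with the same dispersion for every gene. In the data 60.4% of genes were called, so these rates do not carry over to the calls reported here. No library was a copy of another: the mean chi-square of counts per gene was 2.05 to 3.72 within groups and 46.8 to 56.5 between them. The members and the lists of related genes were chosen with earlier results of these data known. Values per library are given for the catalytic genes, PSME1, PSME2, the called gene with the largest increase and the largest decrease of each class, and, of the related genes, the 5 with the smallest adjusted p with NFE2L1, NFE2L2 and TAP1. POMP and PSMA6 were added after their values were seen. Some genes of the related and marker lists are not reported here and are left out of the counts. Genes that share bases with a pseudogene or a neighbour carry uncertain counts: of 30 proteasome pseudogene rows, 3 passed 10 counts in a library, PSMC1P1 with 42 to 97.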

Additional observations from a re-analysis of the deposited data

How the results depend on the processing

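Higher members numbered 16 and 15 (library totals, then quantile normalization, as in each pair below) and lower members 13 and 15. Core beta became 4 and 4 higher and 1 and 1 lower, base 2 and 2 higher and 3 and 3 lower, lid 5 and 4 higher, activators 1 and 1 lower and assembly 1 and 1 lower. Library totals alone gave 2 core alpha lower and 10 related genes higher, and a minimum of 5 CPM gave 2 base higher. Log2 fold changes turned sign with the 5 CPM minimum, library totals and quantile normalization for PSMB5 (0.0198, 0.101, 0.1293), PSMD4 (0.0105, 0.0917, 0.1256), PSMD6 (0.0021, 0.0833, 0.0619), PSMD10 (0.0185, 0.0997, 0.0391), PSMD13 (0.0182, 0.0994, 0.095), PSME4 (0.0025, 0.0837, 0.0455), UCHL5 (0.004, 0.0852, 0.0427), UBQLN2 (0.0034, 0.0846, 0.0267) and IFNGR1 (0.0192, 0.1004, 0.052). They turned with library totals and quantile normalization for PSMD3 (0.0753, 0.1042), TXNL1 (0.0812, 0.0565) and AKIRIN2 (0.065, 0.0233). Library totals turned PSMC6 (0.0408), PSMG3 (0.0153) and PSMA1 (0.0296), and quantile normalization PSMB3 (0.001) and PSME3 (0.0111). With single libraries left out, PSMD7 ran from -0.0271 to 0.0467, PSMD10 from -0.0714 to 0.0005, RAD23B from -0.0085 to 0.036, IFNGR1 from -0.083 to 0.0375, and the difference in the PSME1 to PSME2 log2 ratio from -0.1044 to 0.054. The cause of these changes was not tested. With exon unions as lengths, medians over all 6 libraries in CPM per kilobase were 19.85 for core alpha (31.48 with the principal transcript), 132.3 for core beta (280.1), 43.11 for the immunoproteasome (115), 47.63 for the base (72.22), 29.08 for the lid (77.68), 41.74 for activators (106.5) and 13.23 for assembly (25.84). Replicate numbers did not pair the libraries (correlations of deviations -0.023, 0.018 and -0.018). The fit with the replicate block called 8 members higher and 24 lower, PSMA6 with an adjusted p of 0.0485.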
